A study of Mus musculus with 12 samples.

Results

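Cytochrome P450 enzymes of families 1, 2 and 3 are haem proteins of the endoplasmic reticulum that oxidise drugs, other foreign compounds, steroids and fatty acids, and the liver holds most of them. They take their electrons from cytochrome P450 reductase (Por) and cytochrome b5. Receptors that sense foreign compounds switch several of them on: the aryl hydrocarbon receptor (Ahr) acts on Cyp1a1 and Cyp1a2, the constitutive androstane receptor (Nr1i3) on Cyp2b10 and the pregnane X receptor (Nr1i2) on Cyp3a11. In the mouse liver several members also differ between the sexes, under the control of growth hormone.

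The members were all genes on the array whose symbol, found through the RefSeq record of the probe, belonged to P450 family 1, 2 or 3. There were 56 of them among 20017 named genes, measured by 72 of 39429 probes. Each gene was read from its probe with the highest mean signal. Of the 56, 45 had a signal above background in both channels on the arrays of every group, 6 in some groups and 5 (Cyp2b23, Cyp2c65, Cyp2c66, Cyp2j11 and Cyp2w1) in none. Cyp2a5 and Cyp3a41a matched no probe, although each has a near-identical paralogue on the array (Cyp2a4 and Cyp3a41b).

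All mice were male db/db mice, labelled as 8 weeks old, which lack a working leptin receptor and become obese and diabetic. MgH2, which releases molecular hydrogen (H2) in the stomach, was given by gavage once a day for 1, 3 or 7 days at a labelled dose of 0.9 mg/kg, suspended in glycerol, and its controls received Mg(OH)2. The study gives this dose for these groups too, although the general description of gavage in its methods names higher doses. In a separate experiment mice drank H2-water (0.8 mM H2) for 14 days, and their controls drank degassed water. Each group had 3 arrays. On each, liver RNA of 3 treated mice was pooled and labelled with Cy5, that of 3 controls was pooled and labelled with Cy3, and the dyes were not swapped. A log2 ratio is treated over control, so 1 is a doubling. It was called when its mean differed from 0 at an adjusted p under 0.05 in limma's moderated test over all probes tested. A gene-specific dye effect could add to any ratio, and it cancels in a difference between groups only if it is the same on every array. Whether it was the same across slides and software versions was not tested. Each pool is 1 replicate, so single mice cannot be compared.

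On the 12 arrays 51.8% to 56.5% of the spots were above background in both channels. The 4 slides (A to D) were not balanced: slide A held the H2-water arrays, slide B all arrays of 1 day and 1 of 3 days, slide C 2 arrays each of 3 and 7 days, and slide D 1 array of 7 days. The scanner software version also differed between the H2-water and the MgH2 arrays. H2-water and MgH2 therefore cannot be told apart from slide, software, route and control treatment. The control (Cy3) signals of MgH2 arrays with the same replicate number deviated together across the time points (r from 0.32 to 0.67 over 9 pairs of arrays, across 18411 probes), while the treated (Cy5) signals did not (r from -0.30 to 0.18). Whether the 3 time points shared control pools is not stated, so their values are given side by side and are not counted as separate evidence. In liver RNA, fewer cells of a type and less RNA per cell cannot be told apart.

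After 1 day of MgH2 8.16% of the members tested were called, and after 3 and 7 days 36.7% and 34%, in both directions. Of all probes tested 9.38%, 23.4% and 29.5% were called at these times, so calls rose with time over the whole array too. At 1 day 1 of 49 members tested was called higher and 3 lower, against 5.15% and 4.23% of all 19670 probes tested. At 3 days 6 of 49 were higher and 12 lower, against 12.3% and 11.1% of 19427 probes. At 7 days 8 of 50 were higher and 9 lower, against 15.3% and 14.2% of 19470 probes. After 14 days of H2-water 0 of 47 were higher and 3 lower, against 4.92% and 3.9% of 20429 probes. By limma without adjustment, 14 of 49 members had p under 0.05 at 1 day (5 higher, 9 lower), against 5142 of 19670 probes. After H2-water 13 of 47 did (1 higher, 12 lower), against 4980 of 20429 probes, so that in total the members lay near all probes there. In the fit reported here the share called higher was thus near that of all probes at 3 and 7 days, and below it by few genes at 1 and 14 days. The share called lower stood apart from that of all probes at 3 days alone. In the other groups it was above it by few genes, too few to read as an excess. With 1 array left out, the lower calls were 1 at 1 day, 6 to 7 at 3 days and 0 to 1 after H2-water. The plot of the shares called shows these values.

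**Figure D1:**
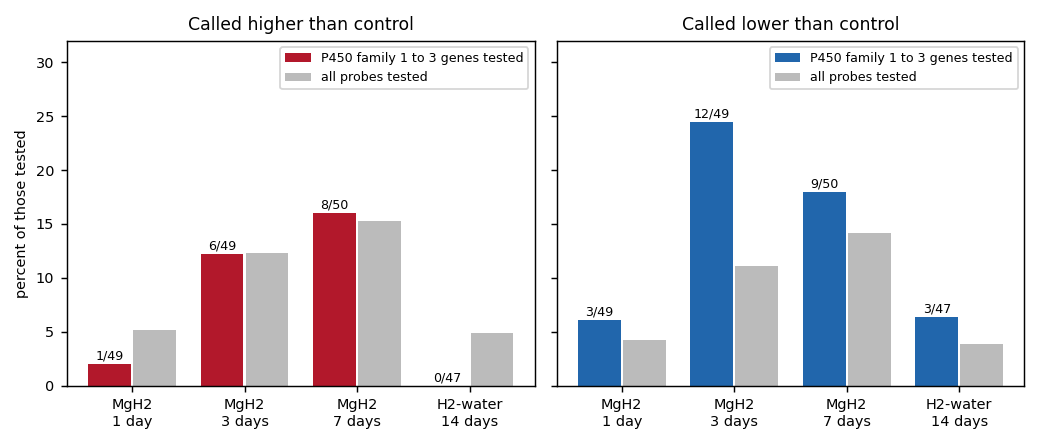
Percent of the P450 genes tested (coloured bars, with the count above each bar) and of all probes tested (grey bars) that were called higher (left) or lower (right) than control in each group. The coloured bar stands furthest above the grey one for lower calls at 3 days (12 of 49), and no gene was called higher after 14 days of H2-water.

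The mean log2 ratios of the members ran from -0.50 to 0.38 at 1 day, from -0.62 to 0.52 at 3 days, from -0.71 to 0.92 at 7 days and from -0.59 to 0.89 after H2-water. Their median was -0.01, 0.03, 0.08 and -0.07 in that order, while the median of all probes tested lay within 0.01 of 0 in each group. The median size of a ratio, whatever its sign, was 0.15, 0.16, 0.23 and 0.14 for the members and 0.09, 0.11, 0.13 and 0.09 for all probes. In all, 26 members were called in at least 1 group, 13 of them at both 3 and 7 days, and 25 of the 51 tested were called in no group and no difference between groups. The calls of 1 and 3 days and of H2-water depended on the spread borrowed from the other arrays. A fit to the arrays of 1 group alone called 0 members at 1 day, 0 at 3 days, 12 at 7 days and 1 after H2-water. The same fits called 0.513%, 1.5%, 11.2% and 2.46% of all probes, so calls were lost over the whole array. The 1 member called after H2-water was Cyp2d9, which the fit reported here did not call, so 0 of the 3 calls after H2-water stayed. The split at 7 days depended on the scaling. With each array centred on the median of all its probes, which put the median of the tested probes at -0.11, 1 member was called higher and 14 lower, while a separate background correction and loess gave 14 and 8. Of all 19470 probes the centring called 939 higher and 5267 lower, and the loess 2839 and 2498. By loess the members called higher were thus a larger share than that of all probes. At 3 days the same settings gave 1 and 11, and 8 and 8. Of all 19427 probes they called 1446 and 1477, and 2186 and 1780. No scaling turned the sign of a gene called in the fit reported here. At 7 days Cyp2j5, Cyp2j6, Cyp2j8, Cyp2j9, Cyp2j13, Cyp2c67, Cyp2d40 and Cyp3a25 stayed called whichever array of the group was left out. At 3 days the same held for Cyp2j6, Cyp2j8, Cyp2j9, Cyp2j13, Cyp2c67 and Cyp2d40. The other 9 and 12 calls were each lost in at least 1 such fit.

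**Figure D2:**
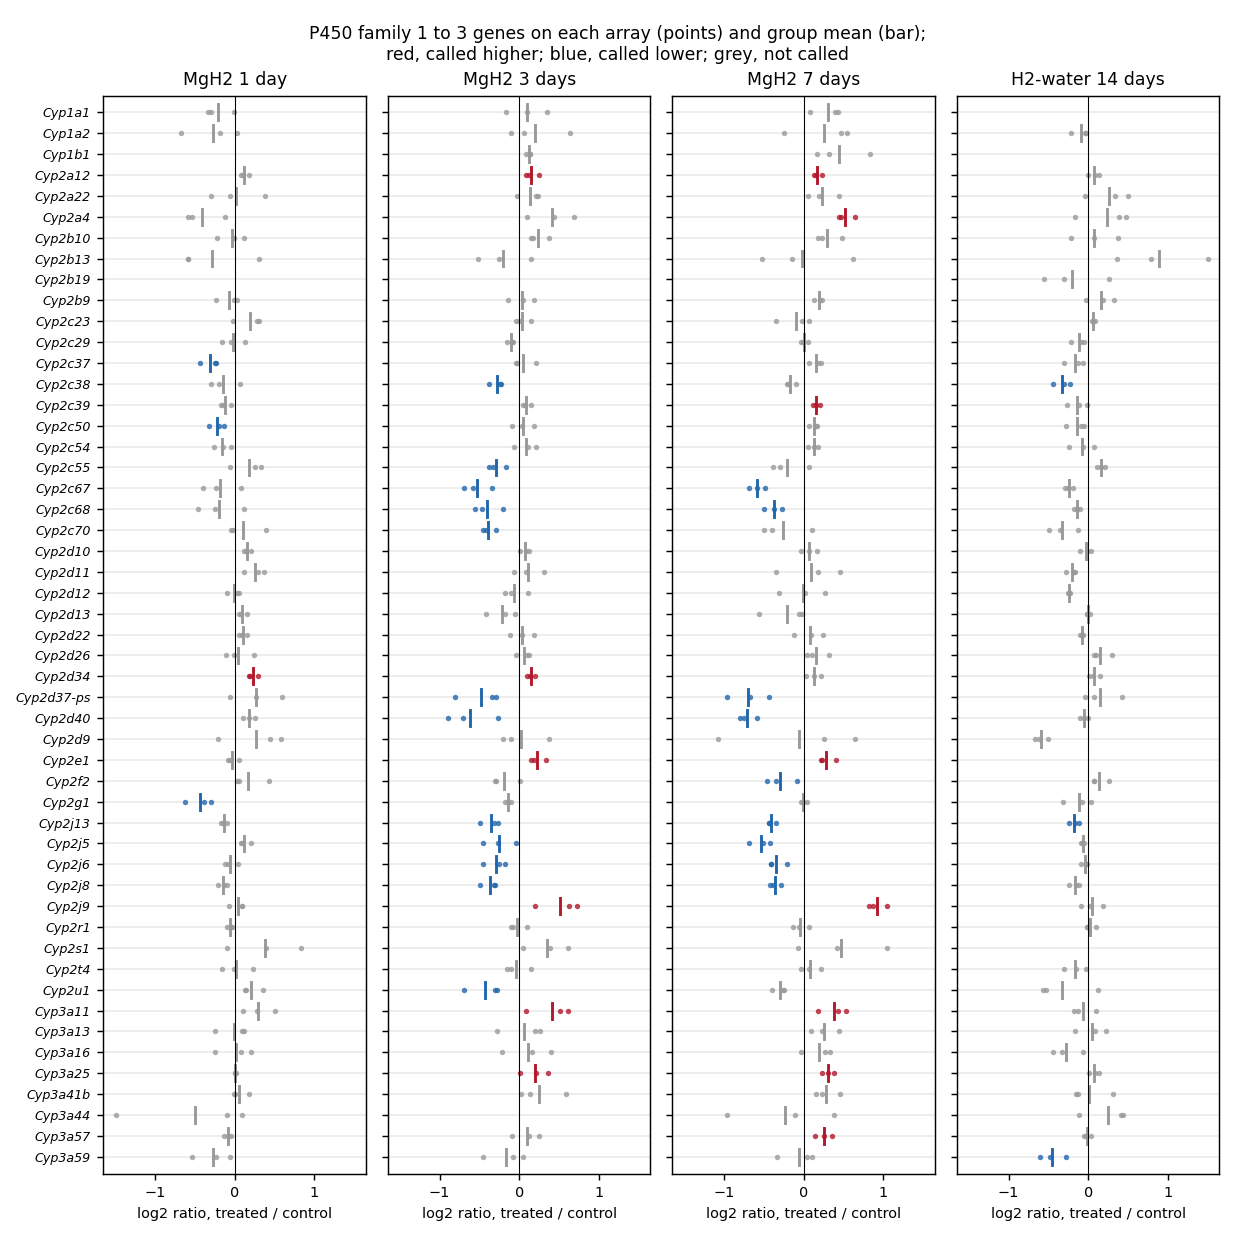
Log2 ratios (treated over control) of the P450 genes tested in at least 1 group. Points are the 3 arrays of a group, the upright bar is their mean, and colour marks genes called higher (red), lower (blue) or not called (grey). Cyp2j9 lies furthest to the right and Cyp2d40 and Cyp2d37-ps furthest to the left after 7 days of MgH2.

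The Cyp2j genes, which include epoxygenases and hydroxylases of arachidonic acid, split in 2 directions within their own cluster on chromosome 4. Cyp2j9 rose while Cyp2j5, Cyp2j6, Cyp2j8 and Cyp2j13 fell, so that all 5 members tested were called at both 3 and 7 days. In the RefSeq annotation Cyp2j9 lies between Cyp2j6 and Cyp2j5. The promoters of the rising gene and of its falling neighbour are shown with those of Cyp2d40, which also fell, and of Cyp3a11, the best known target of the pregnane X receptor. The windows run from 250 bases before to 50 bases after the annotated start, 5′ to 3′ on the gene's own strand (RefSeq, GRCm38.p6, all on the minus strand: Cyp2j9 at chr4:96591436-96591735, Cyp2j5 at chr4:96664070-96664369, Cyp2d40 at chr15:82764073-82764372 and Cyp3a11 at chr5:145879805-145880104). Capitals mark matches, on either strand, to the core of the response element of the aryl hydrocarbon receptor (GCGTG), the STAT5 element (TTCNNNGAA), the half-site of nuclear receptors (AGGTCA) or the D-box (TTATGTAA).
Cyp2j9: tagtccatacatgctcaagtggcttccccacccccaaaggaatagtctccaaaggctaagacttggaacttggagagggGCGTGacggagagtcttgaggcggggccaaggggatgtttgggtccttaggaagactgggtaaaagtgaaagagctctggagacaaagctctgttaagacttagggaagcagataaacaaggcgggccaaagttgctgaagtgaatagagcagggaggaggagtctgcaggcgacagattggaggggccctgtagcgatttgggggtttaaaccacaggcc
Cyp2j5: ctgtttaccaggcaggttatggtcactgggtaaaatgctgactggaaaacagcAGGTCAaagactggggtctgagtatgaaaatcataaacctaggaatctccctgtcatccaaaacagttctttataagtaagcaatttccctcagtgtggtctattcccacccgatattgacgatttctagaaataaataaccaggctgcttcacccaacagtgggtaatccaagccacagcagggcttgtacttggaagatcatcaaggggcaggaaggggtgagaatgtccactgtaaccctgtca
Cyp2d40: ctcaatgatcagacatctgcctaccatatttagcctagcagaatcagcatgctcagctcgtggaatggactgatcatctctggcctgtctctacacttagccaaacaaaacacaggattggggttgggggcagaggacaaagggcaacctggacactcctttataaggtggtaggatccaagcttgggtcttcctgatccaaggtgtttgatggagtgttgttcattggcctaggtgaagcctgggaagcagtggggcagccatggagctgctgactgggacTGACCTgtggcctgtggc
Cyp3a11: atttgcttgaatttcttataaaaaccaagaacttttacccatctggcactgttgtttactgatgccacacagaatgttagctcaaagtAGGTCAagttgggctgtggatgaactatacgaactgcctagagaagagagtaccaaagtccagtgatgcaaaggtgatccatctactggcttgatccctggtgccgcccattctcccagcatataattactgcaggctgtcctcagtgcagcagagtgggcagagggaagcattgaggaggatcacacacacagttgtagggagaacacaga
Each window held 1 match. That of Cyp2j9 was GCGTG, 171 bases before the start. Cyp2j5 and Cyp3a11 held AGGTCA 197 and 162 bases before it, and Cyp2d40 held its reverse complement 32 bases after it. The table held 50 promoters of 47 members. Of these, 18 (36%) held AGGTCA, against 16.3% of all 32851 promoters, and 9 (18%) held GCGTG, against 32.4%. The STAT5 element was in 1 (2%), against 8.3%, and the D-box in 0, against 0.938%. The motifs of the promoters shown did not sort the members by direction. GCGTG was also in promoters of Cyp2j13 and Cyp2c68, which fell. AGGTCA was also in promoters of Cyp2a4, Cyp3a25 and Cyp3a57, which were called higher at 7 days. A link between motif and direction was not tested.

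Cyp2j9 had log2 ratios of 0.09, 0.10 and -0.07 on the arrays of 1 day, 0.20, 0.73 and 0.62 at 3 days and 0.87, 0.82 and 1.05 at 7 days. After H2-water they were 0.19, 0.03 and -0.08. The arrays of 7 days lay above those of every other group, and the arrays of 1 day and of H2-water overlapped around 0. The mean at 7 days was 0.92 ± 0.12 (SD, n = 3), a 1.89-fold level (limma, adjusted p = 0.000156), and at 3 days it was 0.52 ± 0.28 (adjusted p = 0.00437). It was the largest called ratio of any member.

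Cyp2j5, one of the main Cyp2j enzymes of mouse liver and kidney, had log2 ratios of 0.20, 0.07 and 0.09 at 1 day, -0.04, -0.26 and -0.46 at 3 days, -0.42, -0.51 and -0.69 at 7 days and -0.05, -0.08 and -0.09 after H2-water. Its mean of -0.54 ± 0.13 at 7 days was 0.688 of the control level (limma, adjusted p = 0.000653), and at 3 days it was -0.25 ± 0.21 (adjusted p = 0.0285, and 0.114 and 0.185 without replicate 2 or 3 of that group). The other 3 falling genes were lower than control on each array of 3 and 7 days. Cyp2j13 averaged -0.36 at 3 days and -0.41 at 7 days (adjusted p = 0.000913 and 0.000289), Cyp2j8 -0.37 and -0.36 (0.000913 and 0.00061) and Cyp2j6 -0.30 and -0.35 (0.00668 and 0.00215). After H2-water Cyp2j13 was also called, at -0.17 ± 0.06 (adjusted p = 0.0461), but not in any fit that left out an H2-water array (0.119 to 0.23). Cyp2j8 averaged -0.17 there and was not called (0.056). A second probe of Cyp2j6 averaged -0.25 and -0.24 at 3 and 7 days and was not called.

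**Figure D3:**
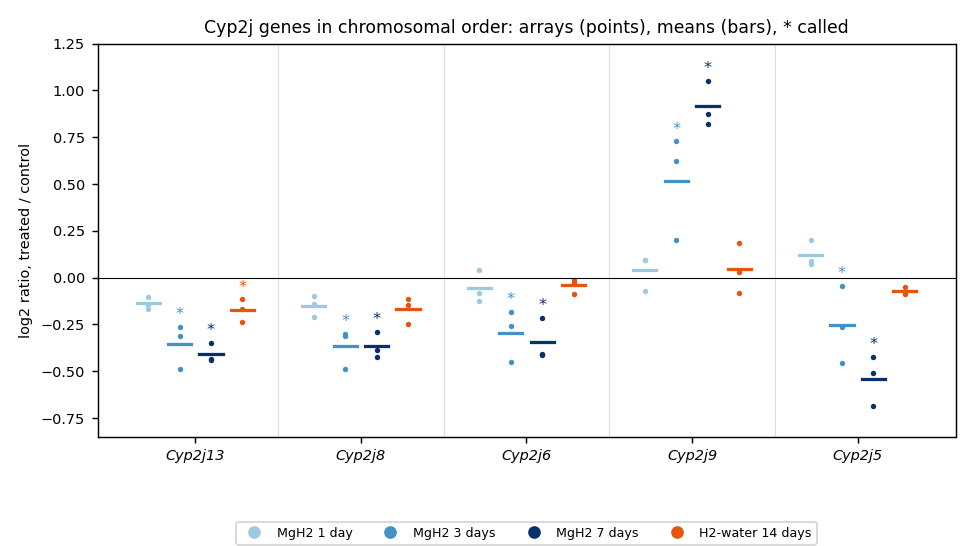
Log2 ratios of the 5 Cyp2j genes tested, in their order on the chromosome. Points are arrays, bars group means, colours the 4 groups, and an asterisk marks a mean called against 0. Cyp2j9 rises to a mean of 0.92 at 7 days while the genes on both sides of it lie below 0 at 3 and 7 days.

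In the Cyp2d cluster on chromosome 15, Cyp2d40 and Cyp2d37-ps, which are neighbours among the loci tested, fell after 3 and 7 days. The tested genes on their far sides were not called. Cyp2d37-ps is annotated as a transcribed pseudogene, so its probe may report its own transcripts or those of a relative. Cyp2d40 had log2 ratios of 0.26, 0.18 and 0.10 at 1 day, -0.27, -0.89 and -0.71 at 3 days, -0.59, -0.80 and -0.75 at 7 days and -0.01, -0.05 and -0.10 after H2-water. The arrays of 3 and 7 days overlapped each other and lay below all others. The means of -0.62 ± 0.32 and -0.71 ± 0.11 at 3 and 7 days were 0.65 and 0.611 of control (limma, adjusted p = 0.00194 and 0.000671). Cyp2d37-ps averaged -0.48 ± 0.29 and -0.69 ± 0.26 at those times (adjusted p = 0.0398 and 0.00679). Leaving out any array of 3 days ended the call there (adjusted p up to 0.235), and leaving out replicate 3 of 7 days ended that one (0.0599). Its arrays were more scattered, at 0.60, 0.27 and -0.06 after 1 day and -0.04, 0.43 and 0.08 after H2-water.

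The other 8 Cyp2d genes moved little or unevenly. Cyp2d34 was called slightly higher at 1 day (0.22 ± 0.07, adjusted p = 0.016) and 3 days (0.15 ± 0.05, 0.04), with adjusted p up to 0.0936 and 0.172 when an array of the group was left out. Cyp2d9, the steroid 16-alpha-hydroxylase of male liver, had log2 ratios of -0.61, -0.67 and -0.50 after H2-water, the lowest mean of that group (-0.59 ± 0.08), but its arrays of 7 days were -1.08, 0.64 and 0.26. With that scatter in the shared estimate of the spread it was not called (adjusted p = 0.218). The fit to the H2-water arrays alone called it, and no other alternative fit of the H2-water ratio did. A second probe assigned to Cyp2d34 followed Cyp2d9 and not its own gene, with log2 ratios of -0.57, -0.75 and -0.42 after H2-water and of -0.98, 0.96 and 0.54 at 7 days. Members of this cluster are close in sequence, so these probes may share targets.

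Among the Cyp2c genes, many of which oxidise arachidonic and linoleic acid, calls differed between neighbouring groups of genes. Cyp2c67 and Cyp2c68, which lie side by side, fell at 3 and 7 days. Cyp2c67 had log2 ratios of -0.23, 0.08 and -0.39 at 1 day, -0.58, -0.34 and -0.69 at 3 days, -0.58, -0.49 and -0.69 at 7 days and -0.29, -0.19 and -0.25 after H2-water. The means of -0.54 ± 0.18 and -0.59 ± 0.10 at 3 and 7 days were called (limma, adjusted p = 0.00269 and 0.00114). The mean of -0.24 after H2-water was not (0.12). A second probe of Cyp2c67 gave smaller ratios, of -0.19 at 3 days and -0.16 at 7 days, neither called. Cyp2c68 averaged -0.41 and -0.38 (adjusted p = 0.0157 and 0.0162), and all of its arrays of 3 and 7 days were below 0, although leaving out 1 array of the group raised these values to as much as 0.0902 and 0.107.

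Cyp2c37 and Cyp2c50, 2 epoxygenases with Cyp2c54 between them, were called lower at 1 day. The arrays of Cyp2c37 were -0.44, -0.25 and -0.24 at 1 day, -0.04, 0.22 and -0.03 at 3 days, 0.07, 0.21 and 0.18 at 7 days and -0.06, -0.31 and -0.13 after H2-water. Its mean at 1 day was -0.31 ± 0.11 (adjusted p = 0.0197), and that of Cyp2c50 was -0.22 ± 0.09 (0.0491). Neither was called when any array of 1 day was left out (adjusted p up to 0.113 and 0.22). Cyp2c39, which can oxidise retinoic acid, was called higher at 7 days (0.11, 0.20 and 0.16, mean 0.16, adjusted p = 0.0335), but not when any array of 7 days was left out (up to 0.148). The second probe of Cyp2c37 averaged -0.19 at 1 day, where it was not called (adjusted p = 0.112), and was called higher at 7 days (0.24).

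Cyp2c70, the enzyme that makes muricholic acids in mice, fell at 3 days with log2 ratios of -0.46, -0.42 and -0.29 (mean -0.39 ± 0.09, adjusted p = 0.0415), and averaged -0.27 at 7 days and -0.32 after H2-water. With the replicate number as a block, its 7-day mean was called too (adjusted p = 0.0341). Cyp2c55 averaged -0.29 at 3 days (adjusted p = 0.0426) and Cyp2c38 -0.28 (0.0139). Without 1 array of 3 days, Cyp2c70 and Cyp2c55 were no longer called (adjusted p up to 0.151 and 0.184), and Cyp2c38 not without replicate 2 (0.0938). After H2-water Cyp2c38 had log2 ratios of -0.23, -0.44 and -0.30 and a mean of -0.32 ± 0.11 (adjusted p = 0.0171, and 0.057 to 0.117 when an array of that group was left out). Its second probe lay at 0.22, -0.18 and 0.16 there and averaged -0.06 at 3 days (0.604), so the 2 probes disagreed in both groups. Cyp2c29, a main Cyp2c enzyme of the liver, had means between -0.12 and 0.00 in the 4 groups and was not called.

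Cyp3a genes make the main drug-oxidising enzymes of the adult liver, and none of the 8 tested was called lower after MgH2, except Cyp3a59 at 1 day with the replicate block (adjusted p = 0.0182). Cyp3a11 and Cyp3a25 rose at 3 and 7 days and Cyp3a57 at 7 days. Cyp3a11 had log2 ratios of 0.11, 0.28 and 0.50 at 1 day, 0.08, 0.62 and 0.52 at 3 days, 0.18, 0.43 and 0.53 at 7 days and -0.17, -0.13 and 0.09 after H2-water. The MgH2 arrays were all above 0, with replicate 1 the lowest at each time, but arrays of the same number are not counted as separate evidence. The means of 0.41 ± 0.29 and 0.38 ± 0.18 at 3 and 7 days were called (limma, adjusted p = 0.0252 and 0.027), and that of 0.30 ± 0.20 at 1 day was not (0.125), but passed with the replicate block (0.0182) and with normexp and loess (0.025). The calls of 3 and 7 days were lost without replicate 2 or 3 of the group (up to 0.165 and 0.16). A second probe of Cyp3a11 averaged -0.02, 0.02 and 0.13 at 1, 3 and 7 days and was not called. On replicate 1 it lay below 0 at each time (-0.48, -0.39 and -0.24).

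Cyp3a25 had log2 ratios of 0.02, 0.36 and 0.21 at 3 days and 0.23, 0.38 and 0.31 at 7 days, with a mean of 0.31 ± 0.07 at 7 days (adjusted p = 0.00359). The mean of 0.19 at 3 days was called (0.0343) but not without replicate 2 or 3 (up to 0.231). Its 3 arrays of 1 day lay within 0.02 of 0. Cyp3a57 averaged 0.25 ± 0.11 at 7 days (adjusted p = 0.0116, and up to 0.0817 when an array was left out). Cyp3a59 was called lower after H2-water, with log2 ratios of -0.60, -0.47 and -0.28 (adjusted p = 0.0495, and 0.114 to 0.245 when an array was left out), but its second probe lay at -0.13, -0.14 and 0.09 there and was called higher at 7 days of MgH2 (0.34). Cyp3a44, which is expressed mainly in females, ranged from -1.49 to 0.09 at 1 day and from -0.11 to 0.44 after H2-water. With an SE of 0.35 at 1 day it was not called.

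**Figure D4:**
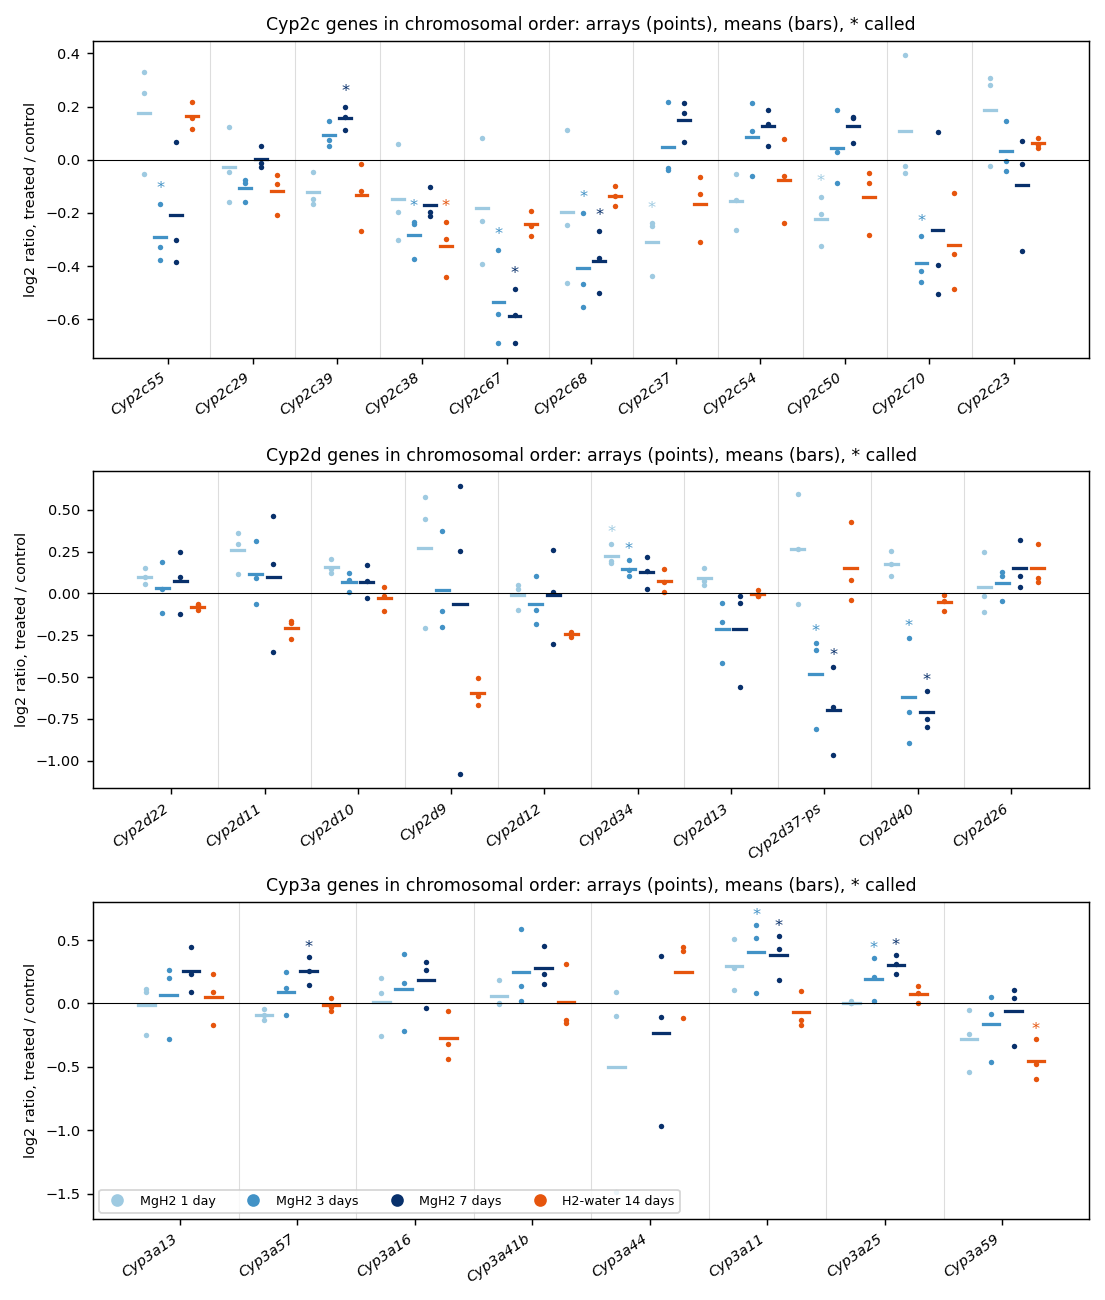
Log2 ratios of the Cyp2c, Cyp2d and Cyp3a genes tested, in chromosomal order within each panel. Points are arrays, bars group means, colours the 4 groups, and an asterisk marks a mean called against 0. Cyp2c67 and Cyp2c68, and Cyp2d37-ps and Cyp2d40, lie below 0 at 3 and 7 days, while Cyp3a11 and Cyp3a25 lie above.

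Of the remaining subfamilies, Cyp2e1, which oxidises ethanol and acetone in hepatocytes near the central vein, rose at 3 and 7 days. Its log2 ratios were -0.06, 0.05 and -0.08 at 1 day, 0.14, 0.33 and 0.19 at 3 days and 0.22, 0.22 and 0.41 at 7 days (means of 0.22 ± 0.10 and 0.28 ± 0.11, adjusted p = 0.0265 and 0.00774, and up to 0.161 and 0.0615 when an array was left out). On 1 H2-water array this spot was flagged, so that group was not tested, and the other 2 gave -0.05 and 0.16. A second probe of Cyp2e1 averaged 0.00 and 0.13 at 3 and 7 days, not called. Cyp2f2, a naphthalene-oxidising enzyme of hepatocytes near the portal vein, fell at 7 days (-0.08, -0.35 and -0.46, mean -0.29 ± 0.19, adjusted p = 0.042, and 0.155 and 0.238 without replicate 2 or 3). Cyp2u1, a fatty acid hydroxylase, fell at 3 days (-0.69, -0.30 and -0.28, adjusted p = 0.0338). It was not called when any array of 3 days was left out (up to 0.192).

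Cyp2a4, a steroid 15-alpha-hydroxylase higher in females, had log2 ratios of -0.12, -0.54 and -0.59 at 1 day, 0.44, 0.69 and 0.10 at 3 days, 0.65, 0.47 and 0.44 at 7 days and 0.47, -0.16 and 0.39 after H2-water. All arrays of 1 day lay below 0 and all of 3 and 7 days above it. The mean was called at 7 days alone (0.52 ± 0.11, adjusted p = 0.0197, and up to 0.106 when an array was left out), and with the replicate block also at 3 days (0.0442). Its second probe was called lower at 1 day (-0.48) and higher at 7 days (0.38). Cyp2a12, the called member with the smallest changes, named here after its values were seen, averaged 0.15 and 0.17 at 3 and 7 days (adjusted p = 0.032 and 0.015). Cyp2g1, known from olfactory mucosa, fell at 1 day (-0.30, -0.62 and -0.39, mean -0.44 ± 0.17, adjusted p = 0.00577) and was called in each fit that left out an array of 1 day (up to 0.0482). Its mean was -0.14 at 3 days and 0.00 at 7 days.

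The classical targets of the foreign-compound receptors in families 1 and 2b were not called in any group. Cyp1a2, the main Cyp1 enzyme of liver, had log2 ratios of -0.68, 0.03 and -0.18 at 1 day, -0.10, 0.64 and 0.07 at 3 days, -0.25, 0.54 and 0.47 at 7 days and -0.04, -0.22 and -0.03 after H2-water, so each MgH2 group spanned 0. Its mean at 7 days was 0.25 (95% interval from -0.15 to 0.65). Cyp1a1 averaged -0.21, 0.10 and 0.30 after MgH2. Cyp2b10 averaged -0.04, 0.23 and 0.30, and its 7-day mean missed the threshold (adjusted p = 0.058) but passed with the replicate block (0.0355). Cyp1b1 was tested at 3 and 7 days alone, with a mean of 0.44 at 7 days (0.063, and 0.0168 with the block). Cyp2b9 averaged between -0.07 and 0.19 in the 4 groups. Cyp2s1, an enzyme of epithelia, averaged 0.38, 0.35 and 0.47 after MgH2 with an SE of 0.24 and was not called.

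Cyp2b13, another gene higher in females, had the highest mean of H2-water (0.89 ± 0.58), from log2 ratios of 1.51, 0.37 and 0.79. Its MgH2 arrays ran from -0.59 to 0.62, and it was not called after H2-water (adjusted p = 0.0716) except with the replicate block (0.00343) and with 2 other settings. Cyp2a22 followed with 0.27. Sex-biased genes outside these 3 families moved by array as well. The median log2 ratio of 13 male-biased liver genes was -0.77, -0.10 and -0.38 on the 3 H2-water arrays and -0.30, 0.16 and 0.08 at 7 days of MgH2, with the lowest value on replicate 1 both times. That of 9 female-biased genes was 0.38, -0.03 and 0.54, and 0.75, 0.02 and -0.30. At 1 day the medians were -0.16, 0.31 and 0.52 for the male-biased and 0.31, -0.79 and -0.86 for the female-biased genes. The median difference from 1 to 7 days was 0.85 over the female-biased genes, in the direction of the gain of Cyp2a4, and -0.50 over the male-biased ones. Their part in the ratios of Cyp2d9, Cyp2b13 and Cyp2a4 was not tested.

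The differences between groups, in which a dye effect that is the same on every array cancels, asked whether the ratios changed with time. Between 1 and 3 days 0 of 48 members were called, against 0.0208% of 19223 probes. By limma without adjustment 21 of the 48 had p under 0.05, against 2962 of the 19223 probes, and with the replicate block 1, Cyp2d40, was called. Between 3 and 7 days 0 of 49 were called and 0% of 19100 probes, and 2 of the 49 had an unadjusted p under 0.05, against 904 of the 19100 probes. Between 1 and 7 days 11 of 49 members differed, against 6.95% of 19166 probes. With the replicate block they were 17, against 13.4% of all probes. The largest gains were those of Cyp2a4, by 0.94 (SE 0.20, adjusted p = 0.0244), and Cyp2j9, by 0.88 (SE 0.13, 0.0122). Cyp2c37 gained 0.46, Cyp2g1 0.43, Cyp2c50 0.35, Cyp3a57 0.34 and Cyp2c39 0.28. Cyp2d37-ps fell by 0.96 between the groups (SE 0.21, adjusted p = 0.027), Cyp2d40 by 0.89 (SE 0.13, 0.0122), Cyp2j5 by 0.66 (SE 0.10, 0.0123) and Cyp2j13 by 0.27 (SE 0.06, 0.0365). The arrays of 1 and 7 days did not overlap in any of the 11, but these were picked by the same difference, so this adds no support. The calls of Cyp2j9, Cyp2d40 and Cyp2j5 held whichever of the 6 arrays was left out, and each of the other 8 lost its call in at least 4 of those 6 fits. Cyp1a2 differed by 0.53 (SE 0.26) and Cyp3a11 by 0.09 (from -0.26 to 0.43), neither called.

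No slide held arrays of both 1 and 7 days. Within slide B, the array of 3 days lay above the mean of 1 day by 0.16 for Cyp2j9 and 0.86 for Cyp2a4, and differed by -0.44 for Cyp2d40 and -0.16 for Cyp2j5. Within slide C, 7 days minus 3 days was 0.17 for Cyp2j9 and for Cyp2a4, 0.11 for Cyp2d40 and -0.11 for Cyp2j5. With the slide as a fixed block, which links 1 and 7 days through 3 days alone, the differences between 7 and 1 days were 0.34 for Cyp2j9, 1.03 for Cyp2a4, -0.34 for Cyp2d40 and -0.27 for Cyp2j5, and 0 of the 11 genes stayed called.

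Between 7 days of MgH2 and 14 days of H2-water 5 of 46 members differed, against 6.61% of 18689 probes. Cyp2j9 was lower after H2-water by 0.87 (a difference of -0.87, SE 0.13, adjusted p = 0.0113) and Cyp2c39 by 0.29 (-0.29, SE 0.07, 0.035). Cyp2d37-ps was higher by 0.85 (SE 0.21, adjusted p = 0.0403), Cyp2d40 by 0.66 (SE 0.13, 0.0239) and Cyp2j5 by 0.47 (SE 0.10, 0.0283). The arrays of the 2 groups did not overlap for any of the 5, which were likewise picked by the same difference. Their H2-water means lay between -0.13 and 0.15. When 1 of the 6 arrays was left out, Cyp2j9 stayed called in 5 of 6 fits (adjusted p up to 0.0526) and each of the other 4 in 1.

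**Figure D5:**
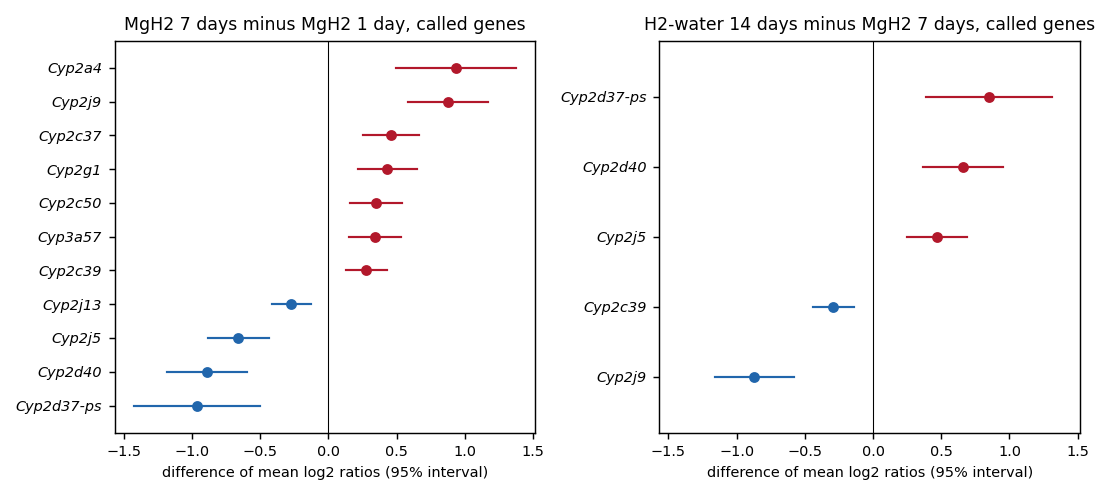
Differences of mean log2 ratios with 95% intervals for the genes called between 7 days and 1 day of MgH2 (left, 11 genes) and between 14 days of H2-water and 7 days of MgH2 (right, 5 genes). Red points are positive and blue points negative differences, and Cyp2j9, Cyp2c39, Cyp2j5, Cyp2d40 and Cyp2d37-ps appear on both sides with opposite signs. Both sides use the same arrays of 7 days, with opposite sign, so these opposite signs are not separate evidence.

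The partners and regulators of these enzymes were described from fixed lists. All 16 genes of electron transfer and haem synthesis were measured, of which 6 were called higher and 5 lower at 7 days (all probes 15.3% and 14.2%) and 4 higher after H2-water (all probes 4.92%). Por, the reductase, had log2 means of -0.05, 0.38 and 0.51 after 1, 3 and 7 days and was called at 7 days. Cyb5r3, the cytochrome b5 reductase, fell at 3 and 7 days (-0.34 and -0.38). Hmox1, which breaks down haem, rose at 3 and 7 days (0.33 and 0.59), while Alas1, the rate-limiting enzyme of haem synthesis in liver, stayed between -0.09 and 0.24 and was not called. Uros, a later enzyme of that pathway, was higher at 1 day (0.19) and lower at 7 days (-0.31).

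Of 23 regulators tested at 7 days 1 was called higher and 4 lower, the latter a share near the 14.2% of all probes. After H2-water 1 of 23 was called higher and 3 lower (all probes 4.92% and 3.9%). The mean log2 ratios of the list ran from -0.55 to 0.77 at 7 days and from -0.26 to 0.95 after H2-water. Neither Ahr (0.08), Nr1i2 (0.05) nor Nr1i3 (0.12) was called there or in another group. Cebpa, a liver transcription factor, fell in all 4 groups, with means of -0.30, -0.48, -0.50 and -0.23. Nr3c1, the glucocorticoid receptor, fell at 3 and 7 days and after H2-water (-0.23, -0.28 and -0.20). Nr0b2, a repressor of bile acid synthesis, fell at 7 days (-0.55). The coactivator Ppargc1a rose at 3 and 7 days (0.58 and 0.77).

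Targets of the constitutive androstane and pregnane X receptors other than P450 genes were called higher more often than lower at 3 days (10 and 1 of 25, median 0.21) and at 7 days (7 and 2, median 0.20), and 3 and 3 at 1 day (median -0.08). Of the targets of the aryl hydrocarbon receptor 2 of 7 were higher and 0 lower at 7 days. Acute phase genes were called lower in 7 of 19 cases at 3 days (median -0.43) and 3 of 19 at 7 days (-0.36), and 0 were higher. Growth hormone signalling genes had 1 of 11 called at 7 days, higher. Other genes of pericentral hepatocytes, as Cyp2e1 is, were 1 higher and 4 lower of 11 at 7 days, and those of periportal hepatocytes, as Cyp2f2 is, were 3 higher and 1 lower of 12. For all probes at these times the medians lay within 0.01 of 0, and the shares called higher and lower were 12.3% and 11.1% at 3 days and 15.3% and 14.2% at 7 days.

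All 6 hepatocyte markers, the check of the labelled tissue, were above background on all arrays. Their summed signal, treated over control, was 1.13 to 1.21 on the arrays of 7 days, with 3 of 6 called higher, and 0.967 to 1.04 after H2-water, with 0 called. That of 6 Kupffer cell markers was 0.732 to 0.794 at 3 days and 0.732 to 0.77 at 7 days, with 3 of 6 called lower each time, and 0 were called after H2-water. The highest Kupffer cell marker lay at 0.25 and 0.30 at 3 and 7 days. Stellate cell markers had 3 of 6 called lower at 7 days, and leukocyte markers 3 of 5. At 3 days 1 leukocyte marker was called higher and 2 lower. Endothelial markers had 1 of 5 called higher and 1 lower at 7 days. Of all probes 12.3% were called higher and 11.1% lower at 3 days, and 15.3% and 14.2% at 7 days. None of the 4 kidney markers was above background on all 12 arrays, but 1 of 4 intestinal and 2 of 8 pancreatic acinar markers were. The part of these shifts in the P450 ratios was not tested.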

How the data were processed

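Liver RNA of treated (Cy5) and control (Cy3) pools was compared on 12 two-colour Agilent arrays. The intensity values were background-corrected and dye-normalised within each array by the authors with Agilent Feature Extraction before they were deposited (version 10.10.1 per the labels, 10.7.3.1 and 10.10.1.1 per the file headers). The deposited log10 ratio of Cy5 over Cy3 came from the same step, with substitute values for dim spots, and the deposited log2 value table equals it within 1.4e-06. Columns of the authors' own log-ratio p-values were not used.

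Control spots were dropped, as were outlier-flagged spots, of which an array had 160 to 244. No spot was saturated. The log2 ratio of the processed intensities was averaged over the spots of a probe, at most 10. Symbols came from RefSeq records (67.0% of probes). A probe entered a test if both of its channels exceeded background on each array of the groups involved. All 12 arrays entered one fit in limma 3.58.1 (R 4.3.3), with a mean per group. Group means against 0 and 4 differences were tested two-sided (95% intervals) with Benjamini-Hochberg adjustment over all probes tested. The number of arrays, 3 a group, limits the precision, and p-values measure the spread between pools. Promoters came from RefSeq (GRCm38.p6).

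The members, gene lists and motifs were chosen with earlier results of these data known. The text names called members (at most 25, by size), fixed P450 names, the 3 highest and 3 lowest ratios of a group, and fixed or called partner genes. In MgH2 groups the replicate numbers pair the arrays, since ratios of the same number deviate together (r from 0.37 to 0.65 over 9 pairs), and H2-water arrays do not meet that rule with those of 7 days (r from 0.03 to 0.29). The replicate block is an alternative, beside other scalings, normexp (offset 50) with loess, no filter, the value table, means over probes, own arrays alone, slide blocks, the methods' test and leaving out each array. The fit was tested on simulated data.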

Additional observations from a re-analysis of the deposited data

Results flagged for a closer look

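The following differences between groups passed the test of the difference itself (limma, adjusted p under 0.05, 3 arrays a group), and the arrays of the groups compared did not overlap. The absence of overlap rests on the same arrays as the test and adds no support to it. From 1 to 7 days of MgH2 the log2 ratio rose by 0.94 for Cyp2a4, 0.88 for Cyp2j9, 0.46 for Cyp2c37, 0.43 for Cyp2g1, 0.35 for Cyp2c50, 0.34 for Cyp3a57 and 0.28 for Cyp2c39. In the same comparison the differences were -0.96 for Cyp2d37-ps, -0.89 for Cyp2d40, -0.66 for Cyp2j5 and -0.27 for Cyp2j13. No slide held arrays of both 1 and 7 days, and with the slide as a fixed block 0 members were called. When 1 array was left out, 3 to 5 members were called instead of 11. Cyp2j9, Cyp2d40 and Cyp2j5 held in each of those fits.

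Between 7 days of MgH2 and 14 days of H2-water they were 0.85 for Cyp2d37-ps, 0.66 for Cyp2d40, 0.47 for Cyp2j5, -0.29 for Cyp2c39 and -0.87 for Cyp2j9. In that second comparison agent, duration, control, slide and software version cannot be told apart. Both comparisons use the same arrays of 7 days, with opposite sign, so opposite differences in them are not separate evidence.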

How the results depend on the processing

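Counts of P450 members called are given here as higher and lower for a group, and in either direction for a difference between groups. They were 1 and 3 at 1 day, 6 and 12 at 3 days, 8 and 9 at 7 days, 0 and 3 after H2-water, 0 from 1 to 3 days, 11 from 1 to 7 days, 0 from 3 to 7 days and 5 from 7 days to H2-water.

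With each array centred on its median the counts were 0 and 1, 1 and 11, 1 and 14, and 0 and 0 for the groups in that order, 6 from 1 to 7 days and 10 from 7 days to H2-water. That centring put the median of all tested probes at 7 days at -0.107 and moved the split of all calls there to 939 higher and 5267 lower. With normexp and loess they were 6 and 3, 8 and 8, 14 and 8, and 3 and 3, and 1 from 1 to 3 days. At 7 days that setting called 2839 higher and 2498 lower of all 19470 probes. Without the filter on dim probes they were 0 and 1, 1 and 7, 7 and 8, and 0 and 2, and 2 from 1 to 7 days. With the mean over a gene's probes they were 0 and 2, 3 and 11, 7 and 9, and 0 and 0. With channels divided by their totals they were 1 and 5, 3 and 12, 7 and 9, and 0 and 4. With only the arrays compared they were 0 and 0, 0 and 0, 3 and 9, and 0 and 1, then 4 from 1 to 7 days and 3 from 7 days to H2-water. In the groups that setting called 0.513%, 1.5%, 11.2% and 2.46% of all probes. The methods' test gave 5 and 4, 1 and 9, 4 and 10, and 0 and 2 without adjustment, and 0 in each group after Benjamini-Hochberg adjustment. The value table changed no count. Centring on probes above background, chosen after seeing the data, moved only the lower calls after H2-water, to 2.

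With the replicate block the counts were 2 and 4, 7 and 12, 11 and 12, and 1 and 6, with 1 from 1 to 3 days, 17 from 1 to 7 days and 14 from 7 days to H2-water, where the rule for pairing was not met. With the slide as a random block they were 2 and 5, 7 and 12, 9 and 9, and 1 and 4, with 19 and 10 for the last pair of differences. With the slide as a fixed block 0 were called from 1 to 7 days. No slide holds both of those groups.

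When 1 array was left out, higher and lower calls ranged from 0 to 1 and 1 to 1 at 1 day, 1 to 4 and 6 to 7 at 3 days, 3 to 6 and 6 to 9 at 7 days, and 0 to 0 and 0 to 1 after H2-water. The differences gave 0 to 1 from 1 to 3 days, 3 to 5 from 1 to 7 days, 0 to 0 from 3 to 7 days and 0 to 4 from 7 days to H2-water. The arm with 2 arrays was assumed to vary like the others. For single genes 1999 alternative values kept their direction and their side of the threshold, 294 fell short of it, 44 passed it and 0 turned. The cause of these shifts was not tested. Ratios of dim probes, such as those of Cyp1b1 and Cyp3a44, are limited by their signal over background.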
